A study of Homo sapiens with 4 samples.

Results

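Interferon-stimulated effector genes encode the proteins with which a cell restricts viruses and other pathogens once interferon signalling is switched on. A list of 53 such genes was matched by gene symbol to the 57659 genes of an RNA-seq table from 786-0 cells, an established human renal cell carcinoma line. Interferon ligands, receptors, transcription factors, sensors and antigen presentation genes are not among the 53 and are described apart from them. Of the 53 genes, 51 had enough signal to be tested, and IFITM1 and OAS2 did not.

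The study asked how lowering SLFN5, a member of the Schlafen family whose genes are themselves interferon-inducible, changes the transcriptome of these cells. Cells had been transfected with a control siRNA (Control 1 and Control 2) or with an siRNA against SLFN5 (SLFN5 siRNA 1 and SLFN5 siRNA 2), which gives 2 libraries per group. The labels name no interferon treatment, no time after transfection and no siRNA sequence. No label ties a library to a culture of its own, so the p-values measure a spread between libraries that may be technical. The sample titles share the codes S371 and S374 across the groups. The labels do not say what these codes mean, and the main fit does not use them. The submitters' design note mentions triplicates, and the data here are 4 libraries. The RNA was bulk RNA, in which fewer cells expressing a gene and less of its RNA per cell cannot be told apart.

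Type I interferons bind the IFNAR receptor and activate the kinases JAK1 and TYK2, which phosphorylate STAT proteins. With IRF9 these form the ISGF3 complex, which binds the interferon-stimulated response element (ISRE) in the promoters of effector genes. Interferon gamma acts through STAT dimers, which bind the gamma-activated sequence (GAS). Cells can also hold a basal level of effector transcripts without added interferon, through unphosphorylated STAT proteins and IRF1.

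Levels are given as equalised counts, which are read counts adjusted by the submitters to a common library size. Changes are SLFN5 siRNA minus control on the log2(equalised count + 1) scale, with a standard error (SE) and a p-value from limma adjusted over all 15640 genes tested (threshold 0.05). SLFN5 itself stood at 420 and 353 in the controls and at 167 and 118 after SLFN5 siRNA, so the groups did not overlap. Its change was -1.45 (SE 0.21, adjusted p = 0.000524), which matches the labels. Recovered sequencing depth ran from 13187517 counts in Control 2 to 31905328 in Control 1. The 10 markers of renal carcinoma and kidney epithelium summed to 133279 and 126212 in the controls and to 110589 and 107030 after SLFN5 siRNA. VIM made up most of that sum and fell by 0.46 (log2, adjusted p = 0.0140), NNMT fell by 0.90, and CDH6 and VEGFA rose by 1.42 and 0.97. The kidney factor PAX8 lay between 3392 and 4129, while the carcinoma marker CA9 was near 0, at most 2.04. PAX2, on the same marker list, was low, at 46.0 and 68.1 in the controls and 37.8 and 20.2 after SLFN5 siRNA. Its groups did not overlap, and its change of -0.99 did not pass (adjusted p = 0.0884). Summed leukocyte markers reached 10.6 to 32.7 with 3 of 7 at 0 counts, and all 3 plasmacytoid dendritic cell markers were at 0 counts. Endothelial markers summed to 4.93 to 12.6 with 1 of 4 at 0 counts, and fibroblast markers to 60.2 to 157.

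The effectors did not move as a block. Of the 51 tested, 9 rose, 6 fell and 36 did not pass, a called share of 29.4%. Over all tested genes 29.6% were called, 13.3% as higher and 16.3% as lower. The genes that rose were APOL1, APOL2, SP110, IFI35, IFI16, TRIM5, GBP3, HERC6 and IFI44. Those that fell were GBP2, IFIT2, PARP12, IFIT3, IFIT5 and GBP1. The median change of the 51 was -0.04 (quartiles -0.42 and 0.30), beside -0.03 over all tested genes (quartiles -0.39 and 0.37). The groups did not overlap for 30 of the 51, 14 higher and 16 lower, which is 58.8% of them. Over all genes 64.6% did not overlap, 30.5% higher and 34.1% lower. The share of called effectors was thus close to that of the transcriptome.

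**Figure D1:**
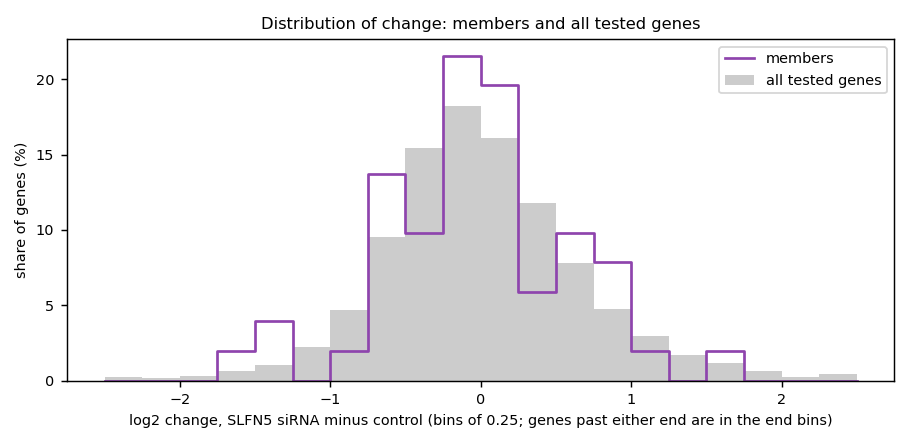
Share of genes (%) in bins of log2 change, SLFN5 siRNA minus control, for all 15640 tested genes (grey bars) and the 51 tested effectors (line). Both distributions centre close to 0, with medians of -0.03 and -0.04.

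The calls leaned on the variance model. Where the variance was not allowed to follow expression level, APOL1 was the single effector that passed, and over all genes 672 were higher and 510 lower instead of 2086 and 2544. Rescaling the libraries to the same sum moved the median change of all genes from -0.03 to 0.09 and the calls over all genes to 2835 higher and 1777 lower. Under it 11 effectors were higher and 6 lower, and no called effector changed sign in any of the 13 alternative settings. With the replicate number as a block 13 effectors were higher and 11 lower, beside 3008 and 3695 over all genes.

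Most effectors were expressed without any interferon treatment named in the labels. Of the 51, 15 had a mean of at least 1000 equalised counts, 27 lay between 100 and 1000, and 9 lay under 100. Per kilobase of exon the most abundant in the controls were BST2 (2357), LGALS3BP (1758), ISG15 (1205), APOL1 (996), IFIT3 (752) and APOL2 (728). The 53 genes summed to 50128 and 45208 equalised counts in the controls and to 60253 and 55714 after SLFN5 siRNA. Without APOL1 and APOL2 the sums were 43053, 40198, 43445 and 41526, and the groups overlapped. Effectors also differed between the controls: 39 of 51 (76.5%) were higher in Control 1 than in Control 2, against 53.8% of all tested genes. The part of this difference in the results was not tested. Between the SLFN5 siRNA libraries the share was 28 of 51 (54.9%) higher in SLFN5 siRNA 1, against 49.7% of all genes.

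**Figure D2:**
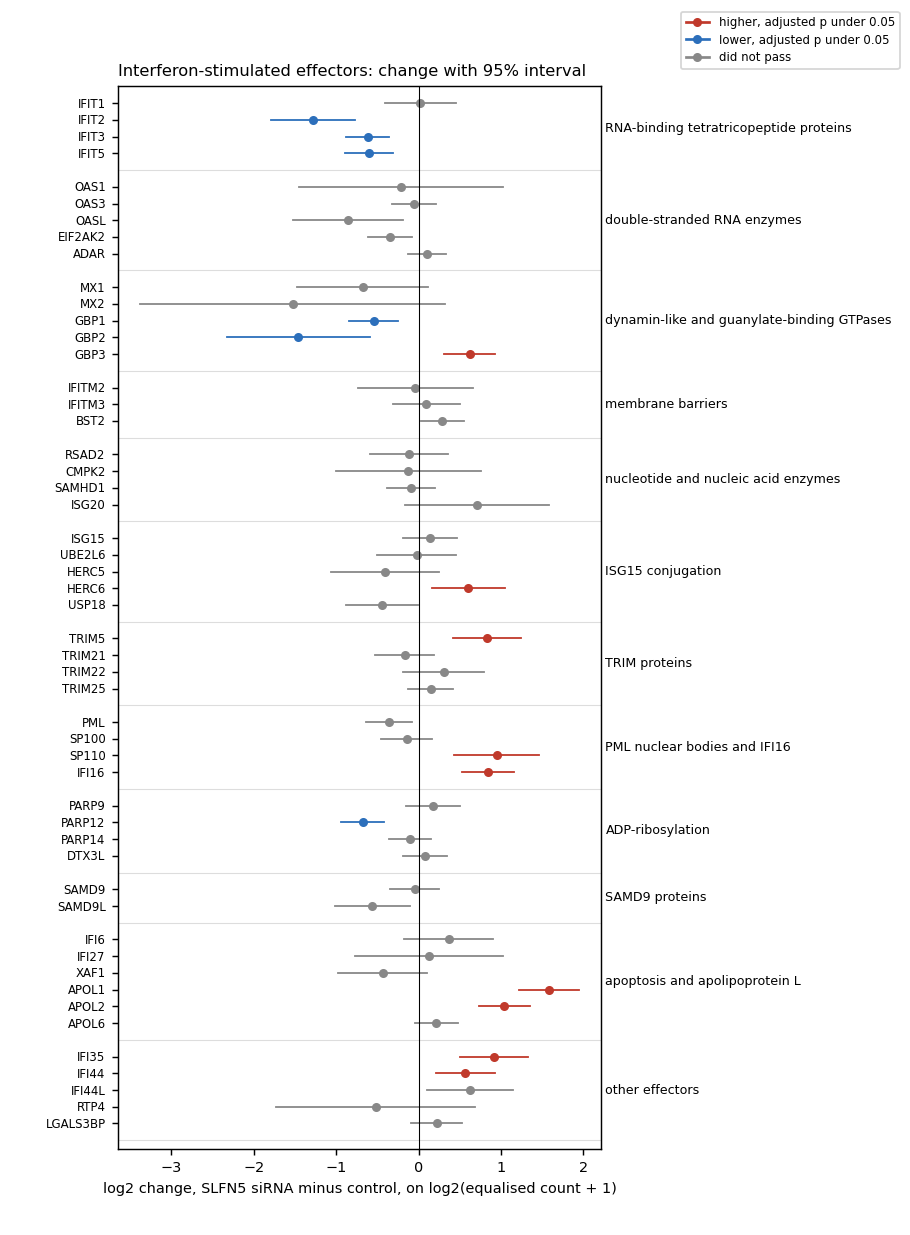
Log2 change, SLFN5 siRNA minus control, with its unadjusted 95% interval for the 51 tested effectors, ordered by role. Red points rose and blue points fell at adjusted p under 0.05, and grey points did not pass; the changes run from -1.53 for MX2 to 1.58 for APOL1.

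Promoter sequence was read from RefSeq windows (GRCh38.p14) that span 250 bases before to 50 bases after each annotated start, for the 41 effectors that the table holds. The 12 not in the table are IFITM2, OAS2, OASL, IFIT2, APOL1, APOL2, APOL6, GBP2, USP18, PML, MX2 and TRIM22. The ISRE core (GAAA, any 2 bases, then GAAA), searched on both strands, was present in 28 of the 41 (68.3%), against 4.38% of the 27305 genes in the table. It lay in 4 of 4 matched effectors that fell, in 3 of 7 that rose and in 20 of 29 that did not pass. The GAS core TTCNNNGAA, also searched on both strands, was present in 9 of the 41 (22.0%), against 9.38% of all genes. It lay in 3 of 7 effectors that rose, in 0 of 4 that fell and in 5 of 29 that did not pass. A match describes letters in a window and does not show that a factor binds there.

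The stretches below are shown because effectors with the same core went different ways. Each is 24 bases, written 5′ to 3′ on the strand that reads GAAA, with the core in capitals. GBP3 (chr1:89022848-89022871, plus strand), IFI44 (chr1:78649764-78649787, minus strand) and TRIM5 (chr11:5685085-5685108, plus strand) rose. GBP1 (chr1:89065319-89065342, plus strand), IFIT3 (chr10:89332471-89332494, minus strand), IFIT5 (chr10:89414557-89414580, minus strand) and PARP12 (chr7:140062945-140062968, plus strand) fell. IFIT1 (chr10:89392500-89392523, minus strand) and ISG15 (chr1:1013383-1013406, plus strand) did not pass.
GBP3: gcctaatGAAACTGAAAgtacttc
IFI44: gagaaagGAAACTGAAActcagtg
TRIM5: agggcagGAAAGTGAAAgataaac
GBP1: gtaatatGAAACTGAAAgtacttc
IFIT3: gggaaagGAAAGTGAAActgatgg
IFIT5: gcgctcaGAAACTGAAActtaaga
PARP12: gggaaacGAAACCGAAAgcggccc
IFIT1: gaaagggGAAAGTGAAActaaagc
ISG15: ggaaaggGAAACCGAAActgaagc
The stretches of GBP1 and GBP3 share their last 19 letters, core included, although GBP1 fell and GBP3 rose. Their positions differ, as the core starts at -127 in GBP1 and at 2 in GBP3 relative to the annotated start. For IFIT3, IFIT5, IFIT1 and ISG15 the windows hold more than 1 core, and 1 is shown.

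The IFIT proteins bind foreign RNA through tetratricopeptide repeats and hinder its translation, and their genes lie side by side on chromosome 10. Of these 4 genes, IFIT2, IFIT3 and IFIT5 fell and IFIT1 did not pass. IFIT2 stood at 408 and 309 in the controls and at 178 and 119 after SLFN5 siRNA, a mean of 358 ± 70.0 against 148 ± 41.4 (SD, n = 2). Both SLFN5 siRNA libraries lay below both controls, with a change of -1.28 (SE 0.23, adjusted p = 0.00185). IFIT3, the most abundant of the 4, was measured at 2097 and 1871 in the controls and at 1265 and 1314 after SLFN5 siRNA. The groups were well apart and the change was -0.62 (SE 0.12, adjusted p = 0.00257). IFIT5 gave 895 and 958 against 591 and 632, again without overlap. Its change was -0.60 (SE 0.13, adjusted p = 0.00588), and without Control 2 the adjusted p was 0.0528. IFIT1, which recognises RNA caps that lack a self mark, gave 399 and 284 in the controls and 312 and 373 after SLFN5 siRNA. Its groups overlapped fully, with a change of 0.02 (95% interval -0.41 to 0.45, adjusted p = 0.957). The difference between IFIT1 and its neighbours was not itself tested.

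The GTPases of the list split. The guanylate-binding proteins, which coat pathogen vacuoles and bacteria, are encoded in a row on chromosome 1, and GBP3 rose while its neighbours GBP1 and GBP2 fell. GBP3 was at 1122 and 1336 in the controls and at 1695 and 2092 after SLFN5 siRNA. No SLFN5 siRNA library reached down to the control range, and the change was 0.62 (SE 0.14, adjusted p = 0.00649). GBP1 was at 829 and 796 in the controls and at 543 and 570.3 after SLFN5 siRNA. The groups did not overlap in that direction either, with a change of -0.54 (SE 0.13, adjusted p = 0.0104), which became 0.0682 without Control 1. GBP2 gave 94.2 and 94.1 in the controls and 52.0 and 21.6 after SLFN5 siRNA. Its SLFN5 siRNA libraries were low but unlike each other, with a change of -1.46 (SE 0.39, adjusted p = 0.0162). Without SLFN5 siRNA 2 the change of GBP2 was -0.84 and its adjusted p 0.0771. These genes are close in sequence, and the sources used here do not say how reads shared between them were counted.

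The dynamin-like GTPases MX1 and MX2, which trap viral nucleocapsids, were low and did not pass. Their means over all libraries were 48.0 for MX1 and 12.6 for MX2, the latter close to the filter of 10. MX1 gave 63.3 and 54.1 against 27.7 and 47.1, without overlap, at a change of -0.68 (adjusted p = 0.186). MX2 gave 25.6 and 9.98 against 13.2 and 1.47, with overlapping groups and a change of -1.53 (SE 0.85, adjusted p = 0.203). The recovered counts behind MX2 were 42, 6, 13 and 1, so a change was not detectable at this depth.

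The apolipoprotein L genes held the effectors with the most marked rise. APOL1, the secreted protein that lyses trypanosomes, was at 4178 and 2831 in the controls and at 11342 and 9297 after SLFN5 siRNA. Both SLFN5 siRNA libraries lay far above both controls, with means of 10319 ± 1446 and 3505 ± 953 (SD, n = 2), a ratio of 2.94. The change was 1.58 (SE 0.17, adjusted p = 6.93e-05), and APOL1 was the one effector that passed in all 13 alternative settings. APOL2, a cytoplasmic relative encoded next to APOL1 on chromosome 22, was at 2897 and 2179 in the controls and at 5466 and 4891 after SLFN5 siRNA. The groups did not overlap, the ratio was 2.04 and the change 1.04 (SE 0.14, adjusted p = 0.000283). APOL6 was at 1222 and 1184 against 1438 and 1350.1, higher in both SLFN5 siRNA libraries. Its change of 0.21 did not pass (95% interval -0.05 to 0.47, adjusted p = 0.209). Reads that match more than 1 of these related genes may have been split in an unknown way.

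**Figure D3:**
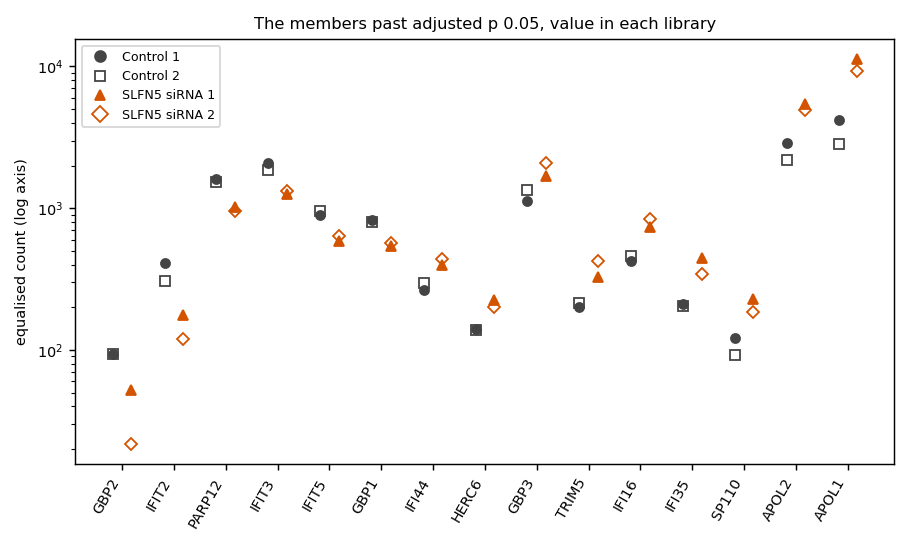
Equalised count (log axis) in each of the 4 libraries for the 15 effectors that passed, ordered from the lowest to the highest log2 change. Grey symbols are the controls and orange symbols the SLFN5 siRNA libraries; in every column the groups are apart, and APOL1 at the right reaches 11342 in SLFN5 siRNA 1.

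Among nuclear body proteins and DNA sensors, IFI16 and SP110 rose, while PML and SP100 did not pass. IFI16, which binds viral and damaged DNA in the nucleus, was at 423 and 458 in the controls and at 741 and 837 after SLFN5 siRNA. The controls were tight and both SLFN5 siRNA libraries lay above them, with a change of 0.84 (SE 0.14, adjusted p = 0.00134). SP110, a nuclear body protein of the SP100 family, was at 121 and 92.4 against 229 and 184. The groups did not overlap and the change was 0.95 (SE 0.24, adjusted p = 0.0106). Its call was lost without SLFN5 siRNA 1 (adjusted p = 0.0763) and without Control 2 (adjusted p = 0.0761). SP100, next to it on chromosome 2, gave 932 and 1063 against 823 and 988, with overlapping groups and a change of -0.14 (adjusted p = 0.493). PML, the organiser of these bodies, gave 1025 and 1000.4 against 822 and 754. Both SLFN5 siRNA libraries were lower, but the change of -0.36 missed the threshold (adjusted p = 0.0525).

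Of the TRIM proteins, which are mostly ubiquitin ligases, TRIM5 rose and the other 3 did not pass. TRIM5, the restriction factor of retroviral capsids, was at 202 and 214 in the controls and at 326 and 422 after SLFN5 siRNA. The groups were apart and the change was 0.83 (SE 0.19, adjusted p = 0.00635). TRIM22, whose locus lies within the annotated span of TRIM5 on the opposite strand, gave 748 and 435 against 802 and 616. Its controls differed widely and overlapped the SLFN5 siRNA libraries, with a change of 0.30 (adjusted p = 0.350). TRIM21, the intracellular antibody receptor, changed by -0.17 (adjusted p = 0.474), and TRIM25, which ubiquitinates RIG-I, by 0.15 (adjusted p = 0.418). The library kit does not mark strand, so reads from any stretch where exons of both genes overlap cannot be told apart by strand. Whether their exons overlap was not checked.

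ISG15 is a ubiquitin-like protein that UBE2L6 and HERC5 attach to targets and USP18 removes. Of these genes and HERC6, a HERC5 relative, HERC6 alone passed. HERC6 was at 141 and 139 in the controls and at 224 and 202 after SLFN5 siRNA. The groups did not overlap and the change was 0.60 (SE 0.20, adjusted p = 0.0426), but the call was lost when any of the 4 libraries was left out (adjusted p from 0.0667 to 0.176). It was also lost with genes of a value of at least 1 tested (adjusted p = 0.0526). HERC5, the neighbouring ligase, gave 115 and 76.9 against 81.7 and 60.8, with overlap and a change of -0.41 (adjusted p = 0.340). ISG15 gave 1272 and 996 against 1367 and 1123, with overlap and a change of 0.14 (95% interval -0.19 to 0.47, adjusted p = 0.540). USP18, which also dampens receptor signalling, gave 338 and 251 against 206 and 223, lower in both SLFN5 siRNA libraries. Its change of -0.44 did not pass (adjusted p = 0.118).

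The ADP-ribosylation genes gave 1 call. PARP12, an RNA-binding mono-ADP-ribosyltransferase, was at 1617 and 1540.4 in the controls and at 1020.3 and 950.5 after SLFN5 siRNA. Replicates were tight, the groups were apart and the change was -0.68 (SE 0.12, adjusted p = 0.00160). PARP9 and its partner DTX3L, which face each other across a shared promoter region on chromosome 3, changed by 0.17 (adjusted p = 0.416) and 0.08 (adjusted p = 0.669). The neighbouring PARP14 changed by -0.10 (adjusted p = 0.557). PARP9 and DTX3L had the same ISRE core within their windows, at the same chromosomal position. Relative to the annotated start it lay at -41 for PARP9 and at -6 for DTX3L.

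Of the enzymes that act on double-stranded RNA, listed together with OASL, 0 of 5 passed in limma as set out above. An unadjusted p under 0.05 was reached by 2, beside 6345 of all 15640 genes tested and 22 of the 51 effectors. These totals are also the background for such counts in the groups below. On the recovered counts limma-voom also called 0. Those with an unadjusted p under 0.05 were OASL and EIF2AK2, which passed in 5 and 4 of the 13 alternative settings. The oligoadenylate synthetases activate RNase L, and OASL is their relative that enhances RIG-I. OASL gave 176 and 116 against 100.1 and 61.1, without overlap. Its change of -0.86 (SE 0.31) missed the threshold (adjusted p = 0.0525). EIF2AK2, the kinase PKR that stops translation, gave 1652 and 1802 against 1276 and 1438, lower in both SLFN5 siRNA libraries. Its change of -0.35 also missed it (adjusted p = 0.0512). OAS3, the abundant synthetase, gave 1156 and 1138 against 1127 and 1084. Its change was -0.05 (95% interval -0.32 to 0.21), with a narrow interval. OAS1 was low and uneven, at 56.3 and 27.9 against 66.3 and 17.3, so its change of -0.22 had an interval of -1.45 to 1.02. ADAR, the RNA editor, was among the effectors that did not pass. OAS2 had recovered counts of 18, 4, 7 and 1 and was not tested.

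Of the membrane barriers, 0 of 3 passed in limma as set out above, 1 had an unadjusted p under 0.05, and limma-voom on the recovered counts called 1. That gene was BST2, which also passed in limma with the libraries rescaled to the same sum (adjusted p = 0.0206). BST2, the tether that holds budding virions, gave 2429 and 2846 against 3324 and 3099.7, higher in both SLFN5 siRNA libraries. Its change of 0.29 (95% interval 0.03 to 0.55) had an adjusted p of 0.0894. IFITM2 and IFITM3, which block fusion of viral membranes, changed by -0.04 (adjusted p = 0.939) and 0.09 (adjusted p = 0.751). They are nearly identical copies, and the annotated span of IFITM2 overlaps IFITM1, so their split is uncertain. IFITM1 had recovered counts of 3, 0, 0 and 7 and was not tested.

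Among nucleotide and nucleic acid enzymes 0 of 4 passed with limma, none had an unadjusted p under 0.05, and limma-voom called 0. RSAD2, the antiviral radical enzyme viperin, gave 151 and 142 against 127 and 144, with overlap. Its neighbour CMPK2, a mitochondrial nucleotide kinase, gave 29.1 and 27.7 against 27.6 and 24.5. Their changes were nearly equal, -0.12 for both (adjusted p = 0.737 and 0.856). Of the growth-restraining SAMD9 pair on chromosome 7, 0 of 2 passed, 1 had an unadjusted p under 0.05, and limma-voom called 0. SAMD9L gave 369.6 and 316 against 192 and 278, lower in both SLFN5 siRNA libraries, at a change of -0.56 (adjusted p = 0.0614). SAMD9 gave 909 and 783 against 809 and 821, with overlap and a change of -0.05 (adjusted p = 0.824).

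Of the remaining effectors, IFI35 and IFI44 rose. IFI35, a leucine zipper protein that binds NMI, was at 212 and 203 in the controls and at 446 and 343 after SLFN5 siRNA. The groups were apart and the change was 0.91 (SE 0.19, adjusted p = 0.00371). IFI44 was at 266 and 295 against 397 and 435, without overlap, and changed by 0.57 (SE 0.17, adjusted p = 0.0231). Its call was lost without SLFN5 siRNA 2 (adjusted p = 0.0901), without Control 1 (0.141) and without Control 2 (0.0560). IFI44L, beside it on chromosome 1, gave 126 and 92.6 against 167 and 167, with a change of 0.62 that did not pass (SE 0.24, adjusted p = 0.0685). In 3 of the 13 alternative settings IFI44L did pass. LGALS3BP, a secreted glycoprotein, gave 6879 and 5723 against 8291 and 6416, with overlap and a change of 0.22 (95% interval -0.09 to 0.52, adjusted p = 0.274). ADAR, SAMHD1, ISG20, UBE2L6, IFI6, IFI27, XAF1 and RTP4 did not pass either. Over all 36 effectors that did not pass, the changes ran from -1.53 to 0.71. The 95% interval lay within 1 log2 unit of 0 for 26 of them and within 0.5 for 12, so for the other 10 a change of 2-fold was not bounded.

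Many of the effectors lie next to each other. Of the list, 32 effectors lie within 500 kb of another, in 13 groups, and 7 groups held at least 1 call. APOL1 and APOL2 were both higher, and IFIT2, IFIT3 and IFIT5 were lower with IFIT1 not passing. The GBP group alone held calls in both directions. In the SP110, HERC6, TRIM5 and IFI44 groups 1 gene rose and its neighbour did not pass, and those differences were not tested.

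**Figure D4:**
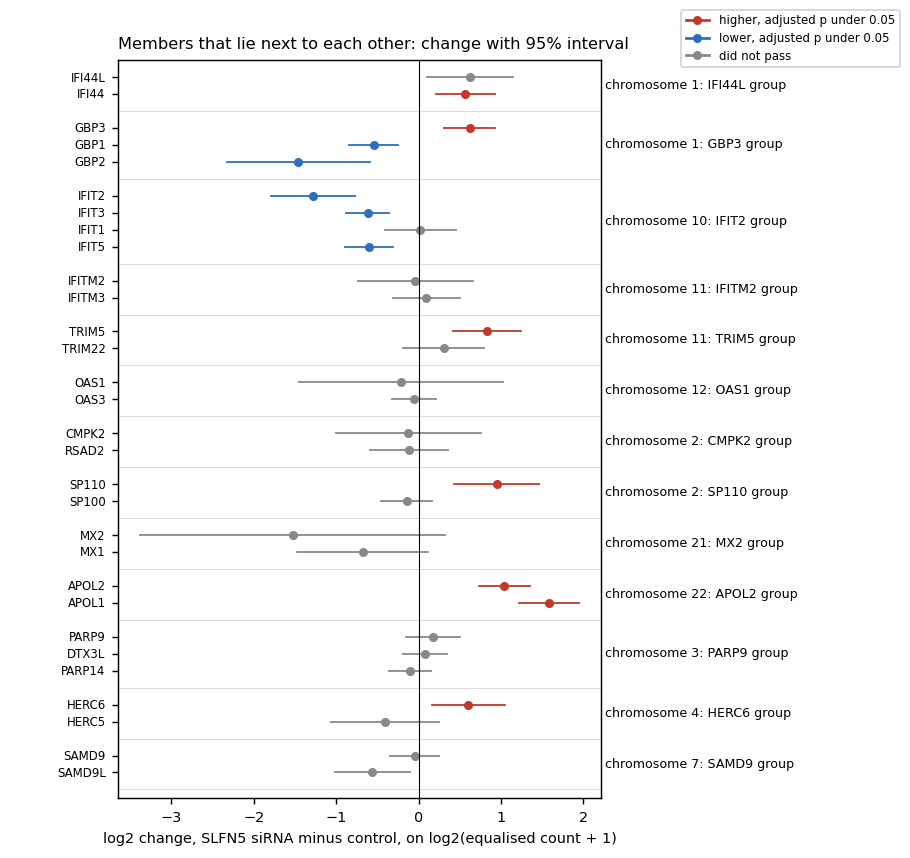
Log2 change, SLFN5 siRNA minus control, with its unadjusted 95% interval for the tested effectors that lie within 500 kb of another, by chromosomal group. Red rose, blue fell and grey did not pass; GBP3 at 0.62 stands opposite GBP1 at -0.54 and GBP2 at -1.46.

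The genes upstream of the effectors also moved both ways. Of 44 ligands, receptors, kinases, transcription factors, inhibitors and sensors, 32 were tested, and 7 rose and 8 fell, at a median change of -0.07. That is 46.9% called, beside 29.6% of all genes, and the list was not tested as a whole. The 7 became 4 without SLFN5 siRNA 1. The 8 became 4 without SLFN5 siRNA 2 or without Control 2, 5 without Control 1, and 5 with libraries rescaled to the same sum. The 9 ligands listed, IFNB1, IFNA1, IFNA2, IFNE, IFNK, IFNG, IFNL1, IFNL2 and IFNL3, gave 2 recovered counts over all 4 libraries, and 7 of them had 0. A count of 0 allows up to 3 counts, which is 0.0940 to 0.228 CPM across the libraries, for counting error only. The 2 counts were 1 of IFNE in Control 1 and 1 of IFNL1 in Control 2. The listed ligand transcripts were thus at or near 0 counts at this depth in both groups.

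Receptor genes were lower where they passed. IFNAR2, a chain of the type I receptor, gave 482 and 455 against 328 and 239.9 (-0.74, SE 0.18, adjusted p = 0.0108, and 0.0603 without SLFN5 siRNA 2). IFNGR1, the ligand-binding gamma receptor chain, gave 661 and 687 against 431 and 497 (-0.54, SE 0.15, adjusted p = 0.0163). Leaving out SLFN5 siRNA 1 gave IFNGR1 an adjusted p of 0.0735, leaving out Control 1 gave 0.0514 and leaving out Control 2 gave 0.103. With libraries rescaled to the same sum it was 0.0574, and with limma-voom 0.0527. Its partner IFNGR2, named after its value was seen, changed by -0.39 (adjusted p = 0.0305). That call was lost when any of the 4 libraries was left out (adjusted p from 0.0557 to 0.223), with the same sum (0.149) and with limma-voom (0.127). In all these genes the groups did not overlap. IFNAR1 did not pass (-0.09, adjusted p = 0.671), nor did the kinases JAK1 (0.10), TYK2 (0.23) and JAK2 (-0.66, adjusted p = 0.0621).

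STAT2 and IRF9 are components of ISGF3. STAT2 gave 819 and 785 in the controls and 1339 and 1171 after SLFN5 siRNA, without overlap, and rose by 0.64 (SE 0.13, adjusted p = 0.00342). IRF9 was low in every library, at 9.83 and 10.1 against 7.16 and 8.11, and was not tested.

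Other regulators passed in both directions. STAT3, the main target of gp130 cytokines, gave 961 and 1006 against 2048 and 1988, a rise of 1.04 (SE 0.12, adjusted p = 9.92e-05). IRF7, the master regulator of interferon alpha genes, gave 54.5 and 36.0 against 127 and 130.1, a rise of 1.51 (SE 0.30, adjusted p = 0.00281). IRF1, which drives many effectors at basal level, gave 1818 and 1681 against 1165 and 1070.2, a change of -0.65 (SE 0.12, adjusted p = 0.00219). In these 3 genes the groups were wide apart. NLRC5, the activator of HLA class I genes, rose by 0.51 (adjusted p = 0.0291), with the call lost without SLFN5 siRNA 1 (0.110) and without Control 2 (0.227). The kinase IKBKE rose by 0.57 (adjusted p = 0.0140), with the call lost without SLFN5 siRNA 1 (0.0752) and without Control 2 (0.167).

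Inhibitors split as well. The suppressor SOCS1 changed by -1.42 (adjusted p = 0.0107, and 0.0823 without Control 1), at 69.7 and 58.6 against 24.5 and 22.2. SOCS3 changed by -0.62 (adjusted p = 0.0105, then 0.0598 without SLFN5 siRNA 2 and 0.0990 without Control 2). The phosphatases PTPN11 and PTPN6 rose, by 0.99 (adjusted p = 0.000153) and 1.11 (adjusted p = 0.00652, and 0.0645 without SLFN5 siRNA 1). MB21D1, which encodes the DNA sensor cGAS, changed by -0.76 (adjusted p = 0.00700, and 0.0973 without Control 2). None of these groups overlapped.

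**Figure D5:**
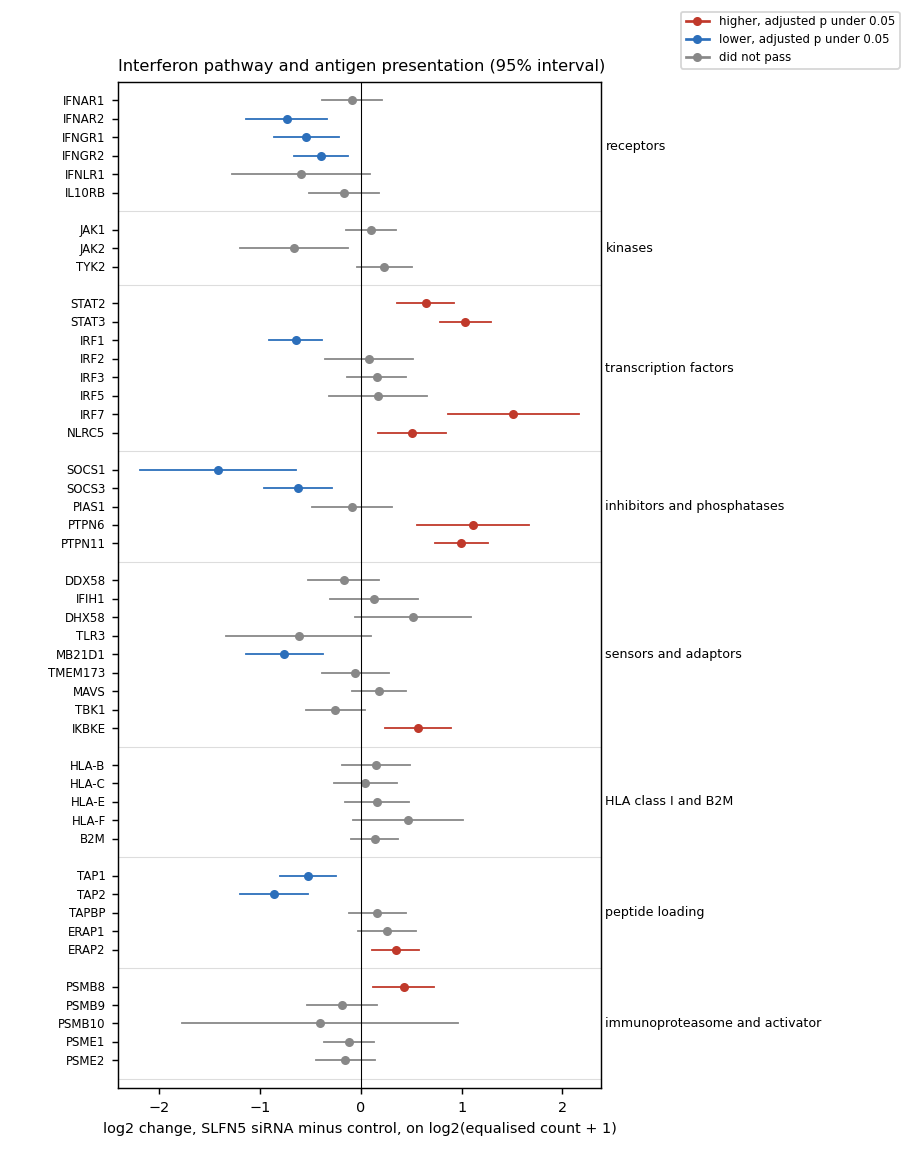
Log2 change, SLFN5 siRNA minus control, with its unadjusted 95% interval for tested genes of the interferon pathway and of antigen presentation, by kind of gene. Red rose, blue fell and grey did not pass; receptors that passed lie left of 0, while transcription factors run from -0.65 for IRF1 to 1.51 for IRF7.

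Of 16 interferon-inducible antigen presentation genes, 3 rose and 2 fell, or 31.2% called beside 29.6% of all genes. TAP1 and TAP2, the peptide transporter that loads HLA class I, fell. TAP1 gave 2441 and 2097 against 1669 and 1482, a change of -0.52 (adjusted p = 0.00870, and 0.0842 without Control 1). TAP2 gave 524 and 577 against 303 and 302, a change of -0.86 (SE 0.15, adjusted p = 0.00172). For both, the SLFN5 siRNA libraries lay below the controls. Among those that rose were ERAP2, a peptide-trimming enzyme, and PSMB8, an immunoproteasome subunit, by 0.35 (adjusted p = 0.0291) and 0.42 (adjusted p = 0.0363); they are named after their values were seen. Without Control 2 none of the 3 that rose passed (adjusted p = 0.162 for ERAP2 and 0.275 for PSMB8), and without SLFN5 siRNA 1 PSMB8 did not (0.165). ERAP2 also missed without SLFN5 siRNA 2 (0.105) and without Control 1 (0.125). HLA genes and their neighbours have haplotype copies in the table, and the copy on the reference chromosome was used.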

How the data were processed

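Libraries were made from poly(A)-selected RNA with a TruSeq v2 kit and sequenced from one end, per the labels' protocols. The submitters' processing notes name hg19 and edgeR. The aligner and counter are not given in any source used here. Each gene has a deposited signal value per library, derived by the authors from counts. These values are not whole and have the form of edgeR pseudo-counts at 1 library size (equalised counts). Inverting that adjustment gave whole counts for 100% of 230636 values (tolerance 1e-06), used for depth and for limma-voom.

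The test was limma 3.58.1 (R 4.3.3), over genes that reached 10 or more in 2 or more libraries, on log2(value + 1), SLFN5 siRNA against control, with a variance trend and Benjamini-Hochberg adjustment over 15640 genes, two-sided. A count test was reserved for raw counts and so did not apply. The fit and the inversion were tested on simulated data. No set test was run. Some genes of the lists count in the totals but are not reported here.

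The genes and lists were chosen with earlier results of these data known. Every effector past the threshold is named with its values. Others are named at an absolute change of at least 0.8 or as family or chromosomal partners of a called gene. The 5 most abundant per kilobase of exon, ranked over both groups together, are also named. EIF2AK2, OAS1, OAS3, MX1, IFITM2, IFITM3, RSAD2, CMPK2, SAMD9, SAMD9L, PML, USP18, DTX3L, IFNAR1, JAK1, JAK2, TYK2, IRF9 and the untested OAS2 and IFITM1 fall outside this rule and were named after their values were seen. Exon lengths and gene order are from GENCODE on GRCh38, whose gene coordinates are not printed, and promoter windows are from RefSeq. Alternatives covered the pseudocount, the filter, the scaling, the variance trend, a replicate block, limma-voom and leaving out each library.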

Additional observations from a re-analysis of the deposited data

How the results depend on the processing

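Of the 15 effectors called, 9 passed whichever library was left out, and 1 (APOL1) passed in every setting run. The same counts over all called genes are not given here, so these have no background to be read against. Without the variance trend 1 effector was higher and 0 lower (limma), with 672 and 510 over all genes. That fit gave 3 and 1 in the pathway list and 0 and 1 in antigen presentation. The sample titles give Control 1 and SLFN5 siRNA 1 the code S371, and Control 2 and SLFN5 siRNA 2 the code S374. The labels do not say what the codes or the replicate numbers stand for. Deviations of libraries with the same number correlated at 0.190 over 15640 genes. With the replicate block 13 effectors were higher and 11 lower, 3008 and 3695 over all genes, and 5 antigen presentation genes were higher. All 15 called effectors were among the 24 called with the block. The other 9 were EIF2AK2 (adjusted p = 0.00329), OASL (0.00368), PML (0.00652), SAMD9L (0.00973), BST2 (0.0110), IFI44L (0.0202), LGALS3BP (0.0258), USP18 (0.0378) and TRIM22 (0.0478). Rescaled to the same sum, 61.5% of all calls were higher, against 45.1%, and 5 pathway genes were lower. With limma-voom 2800 genes were higher and 1823 lower. Leaving out each library gave 6 to 8 effectors higher and 5 to 7 lower, 1353 to 1791 and 1588 to 2300 over all genes, 4 to 7 and 4 to 6 in the pathway list, and 0 to 3 and 1 to 2 in antigen presentation. The lowest counts over all genes came without Control 2. Fewer samples enter those fits.

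Changes of sign arose in effectors that had not passed, and their cause was not tested. Leaving out each library gave -0.22 to 0.26 for IFIT1, -0.55 to 0.46 for IFITM2, -0.11 to 0.30 for IFITM3, -0.0387 to 0.31 for ISG15, -1.16 to 0.73 for OAS1, -0.16 to 0.0584 for SAMD9 and -0.0883 to 0.69 for TRIM22. Over all 13 settings UBE2L6 ran from -0.32 to 0.27, SAMHD1 from -0.21 to 0.03 and IFI27 from -0.46 to 0.71. Rescaled to the same sum, the changes were 0.0800 for IFITM2, 0.0695 for OAS3, 0.0219 for PARP14, 0.00598 for RSAD2 and 0.0735 for SAMD9. With limma-voom they were 0.0656 for OAS3, 0.0125 for PARP14 and 0.0526 for SAMD9. Depth limits MX2, OAS2 and IFITM1 most, and Control 1 has 2.42 times the counts of Control 2.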

Other observations

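Relatives of the effectors that are not on the list were looked up after the effectors' values had been seen. Of 24 such genes, 13 were tested, and 1 rose and 3 fell (30.8%, against 29.6% of all tested genes). ZC3HAV1, the zinc finger antiviral protein that marks CpG-rich viral RNA for decay, gave 6895 and 7487 in the controls and 3949 and 3866 after SLFN5 siRNA. The groups were wide apart, with a change of -0.88 (SE 0.11, adjusted p = 0.000149).

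APOL3, encoded beside APOL1 and APOL2, gave 251 and 214 in the controls and 88.9 and 83.7 after SLFN5 siRNA. Its change was -1.41 (SE 0.22, adjusted p = 0.000730), opposite in sign to those of APOL1 and APOL2. The changes of APOL3 and ZC3HAV1 passed in all 13 alternative settings. GBP4 gave 84.6 and 64.7 against 34.8 and 36.0, a change of -1.04 (adjusted p = 0.0298) that was lost when any of the 4 libraries was left out (adjusted p from 0.0582 to 0.228).

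SP140, whose annotated span overlaps SP110 on the opposite strand, gave 14.3 and 17.1 against 27.7 and 67.6, a change of 1.41 (adjusted p = 0.0461). Without SLFN5 siRNA 2 the change was 0.79 (adjusted p = 0.299), and the call was also lost without Control 1 (0.0821) and without Control 2 (0.0503). The kit does not mark strand, so SP140 and SP110 reads from any stretch where their exons overlap cannot be told apart by strand. Whether the exons overlap was not checked.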
